A study of Mus musculus with 12 samples.

Results

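Chemokines that draw T cells into tissue, and the receptors they act on, were followed in the bulk RNA of 12 LKB1-deficient mouse lung tumors. The members are 7 of the 34678 gene symbols in the tables: the ligands Cxcl9, Cxcl10, Cxcl11, Ccl5 and Cxcl16 and the receptors Cxcr3 and Cxcr6. They were taken by name from the symbol column, and each occurs there once. The list was chosen with earlier results of these data known. The tumors grew from LLC1-shLkb1, a single line of Lewis lung carcinoma cells in which a short hairpin RNA targets Lkb1 (Stk11). The hosts were immunocompetent C57BL/6 mice stated to be 5 to 8 weeks old. The study's methods describe implantation under the skin and into the left chest, and do not give the site for the sequenced tumors. The 4 arms received the control treatment labelled vehicle (in the study's methods, an injected control IgG), palbociclib, an oral inhibitor of the kinases CDK4 and CDK6 (100 mg/kg), an injected antibody against PD-1 (200 µg per mouse), or both agents together (the combination). Each arm comprised 3 tumors, collected after 2 weeks of treatment. Every tumor carried the hairpin, so there is no Lkb1-intact tumor to compare with, and Stk11 itself lay between 7.90 and 11.5 FPKM (fragments mapped to a gene, scaled to its length and to the fragments of the library).

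Chemokines are small secreted proteins that guide cells along their gradients through G-protein-coupled receptors. CXCL9, CXCL10 and CXCL11 share the receptor CXCR3, which is carried by activated T cells and natural killer (NK) cells, and their genes are induced by interferons. CCL5 is made by cytotoxic lymphocytes and macrophages, whereas CXCL16 is a membrane-anchored chemokine of macrophages and dendritic cells whose receptor CXCR6 marks effector and tissue-resident T cells.

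The 3 CXCR3 ligand genes lie side by side on the minus strand of mouse chromosome 5 within 44139 bp (GRCm38, GENCODE M21): Cxcl9 at chr5:92321347-92328079, Cxcl10 at chr5:92346638-92348889 and Cxcl11 at chr5:92359544-92365485. Cxcl11 is annotated there as a polymorphic pseudogene, since the C57BL/6 strain is known not to make an intact CXCL11 protein, so its reads count a transcript only. Cxcr3 is on chromosome X (chrX:101731535-101734269, minus strand), Ccl5 (chr11:83525778-83530518) and Cxcl16 (chr11:70453983-70459984) are both on the minus strand of chromosome 11, and Cxcr6 is on chromosome 9 (chr9:123806475-123811760, plus strand). Exons of Cxcl10 overlap Art3, those of Cxcl16 overlap Zmynd15 and those of Cxcl11 overlap the pseudogene Gm2673, each on the opposite strand. Cxcr6 lies within the span of Fyco1, also on the opposite strand, with no exon in common. Whether the counting used strand is not given in the sources used here, so reads from these partners cannot be told apart. Art3 and Zmynd15 had arm means of at most 0.516 and 0.455 FPKM. Fyco1 lay between 2.39 and 3.46 FPKM, above Cxcr6 in every tumor.

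Cxcl9 and Cxcl10 are neighbors whose values ordered the tumors differently, so the 250 bases before the start of each are printed here from RefSeq (GRCm38.p6), read 5′ to 3′ along the gene, that is on the minus strand. Capitals mark matches, on either strand, to the core of the interferon-stimulated response element (GAAANNGAA) and to the consensus of NF-kappaB, the transcription factor of inflammatory signaling. The Cxcl9 window is chr5:92328080-92328329 and the Cxcl10 window is chr5:92348890-92349139.
Cxcl9: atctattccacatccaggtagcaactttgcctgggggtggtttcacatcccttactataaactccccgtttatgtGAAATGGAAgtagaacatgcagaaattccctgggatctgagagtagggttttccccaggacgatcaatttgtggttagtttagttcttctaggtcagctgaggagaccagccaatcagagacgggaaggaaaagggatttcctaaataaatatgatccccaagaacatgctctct
Cxcl10: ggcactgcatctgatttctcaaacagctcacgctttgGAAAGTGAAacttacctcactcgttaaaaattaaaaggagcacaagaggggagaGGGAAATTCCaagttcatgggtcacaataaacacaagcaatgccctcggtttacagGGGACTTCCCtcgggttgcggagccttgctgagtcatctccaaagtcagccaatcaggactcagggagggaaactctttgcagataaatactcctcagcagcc

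Both windows hold 1 match to the interferon core, beginning 175 bases before the start in Cxcl9 and 213 bases before it in Cxcl10. The Cxcl10 window also holds 2 NF-kappaB matches, beginning 159 and 103 bases before the start, and the Cxcl9 window none. Of the 32851 promoter windows of this length in the table, 7.13% hold the interferon core and 3.90% the NF-kappaB consensus. Matches to the gamma-activated site TTCNNNGAA (7.02% of all windows) and to the E2F sites TTTCCCGC (0.895%) and TTTGGCGC (0.417%) were also searched and occur in neither window. RefSeq windows were at hand for 4 of the 7 members; those of Cxcr3 and Cxcr6 hold none of these matches. A match describes letters only and is no evidence of binding.

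The deposited values are FPKM, which divide by gene length, so levels can be set side by side between genes, though only roughly. The fragments estimated below imply lengths of 4590 bp for Cxcl16, 5175 for Cxcl11 and 1200 for Ccl5. Their exon lengths in GENCODE M21 are 3021, 3794 and 960 bp. For Cxcl9, Cxcl10, Cxcr3 and Cxcr6 the implied and exon lengths were closer. The members fell into 2 levels in every tumor. Cxcl11, Cxcr3 and Cxcr6 were below the other 4 members in 12 of 12 tumors, none of the 3 above 1.98 FPKM. Depth was estimated from the steps between low FPKM values at 14900000 to 20300000 fragments per tumor, so the low members rest on few fragments: about 4 to 34 per tumor for Cxcl11, 0 to 31 for Cxcr3 and 3 to 60 for Cxcr6. All 7 members passed the filter for testing, a mean of at least 0.1 FPKM over the 12 tumors, as did 15350 genes in all.

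**Figure D1:**
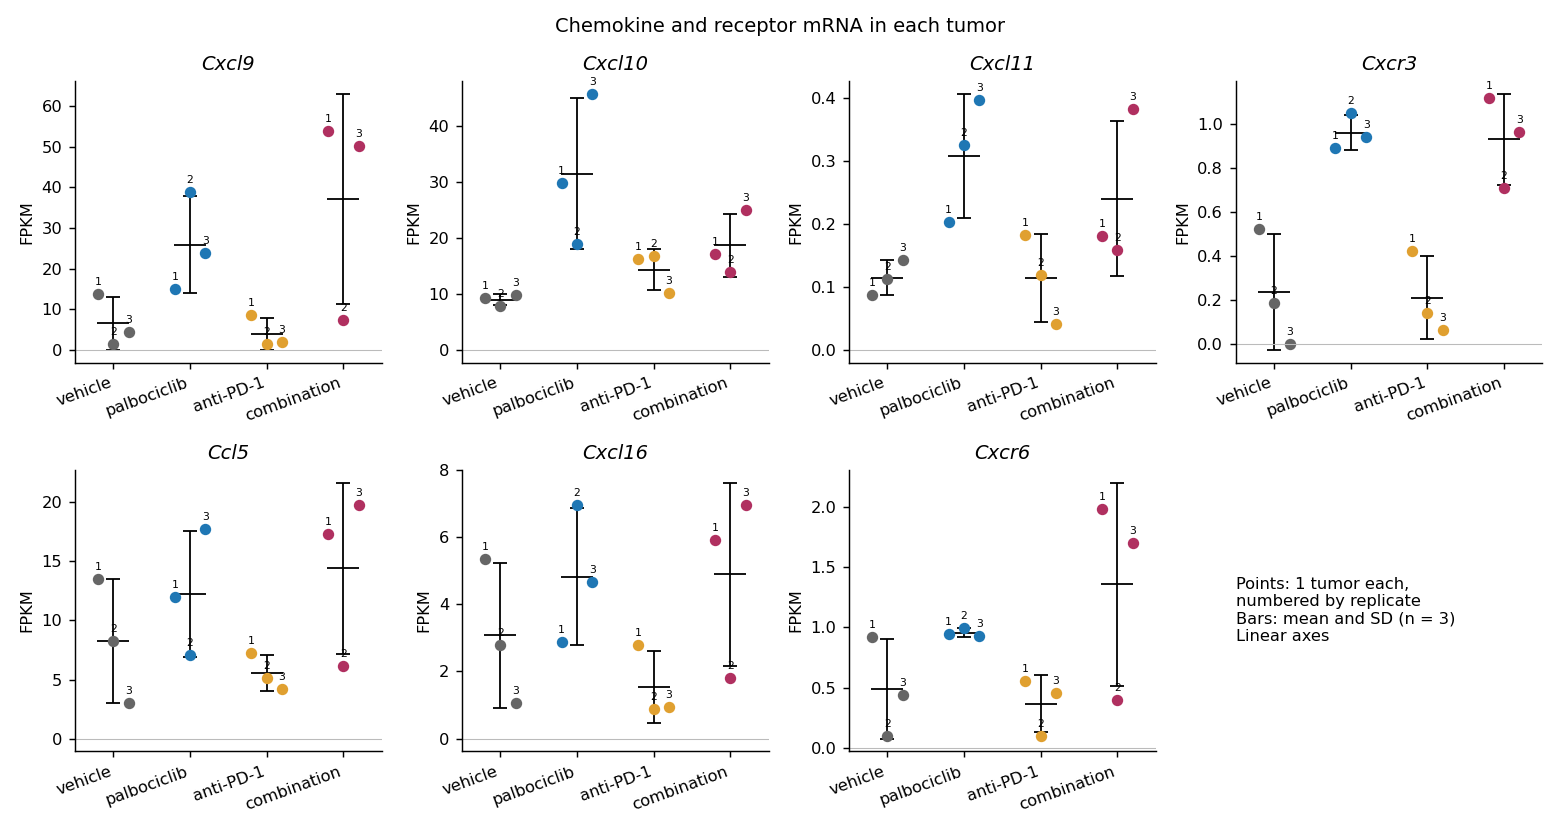
FPKM of the 7 members in each of the 12 tumors, on linear axes with a scale of its own for each gene; points are tumors numbered by replicate, and bars are the mean and SD of the 3 tumors in an arm. Cxcr3 was between 0.707 and 1.12 FPKM in the 6 palbociclib-treated tumors and at most 0.522 in the other 6, whereas Ccl5 values overlapped between every pair of arms.

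The question put to these tumors was whether palbociclib, alone or with anti-PD-1, changed the immune signals in the tumor. The comparison is given as the palbociclib effect, which averages palbociclib minus vehicle and combination minus anti-PD-1, on the log2(FPKM + 0.1) scale. Each of the 7 members had a positive effect, as did 59.8% of all genes tested. Each also had an unadjusted p under 0.05 (limma), against 14.1% of genes that were higher at this p. The median effect of the members was 1.20 against 0.0552 for all genes. Since the list was chosen with earlier results of these data known, these shares describe the list and do not test it. None of the 7 passed the threshold of 0.05 after Benjamini-Hochberg adjustment over all 15350 genes, a threshold passed by 48 genes (0.313%), and the adjusted p-values of the members lay between 0.0736 and 0.211. Both counts depended on single tumors. With 1 tumor left out in turn, all 7 members kept an unadjusted p under 0.05 in 4 of the 12 sets, 6 members did in 3 sets and 5 in the other 5, against 10.2% to 18.5% of all genes, and the members lost were Ccl5, Cxcl16 or both. After adjustment, 0 members passed in 9 of the 12 sets. Cxcl9, Cxcl10 and Cxcr3 passed without vehicle replicate 1, when 4.51% of all genes were called, and without anti-PD-1 replicate 1, when 4.94% were. Cxcl9 and Cxcl10 passed without combination replicate 2, when 1.72% were. In bulk tumor RNA, more cells of a type and more RNA per cell cannot be told apart.

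Cxcl9, a ligand made mainly by macrophages and dendritic cells under interferon-gamma, had the largest effect of the 7. In the vehicle arm it was at 13.7, 1.33 and 4.34 FPKM, and in the palbociclib arm at 15.0, 38.8 and 23.8 FPKM. Under anti-PD-1 it was at 8.51, 1.41 and 1.82 FPKM, and with the combination at 54.0, 7.35 and 50.2 FPKM. All 3 palbociclib tumors were above all 3 vehicle tumors, though palbociclib replicate 1 was close to vehicle replicate 1, and combination replicate 2 lay below anti-PD-1 replicate 1. The effect was 2.83 ± 0.68 (SE) on the log2 scale, or 7.12-fold (unadjusted p = 0.00157, adjusted p = 0.0846, limma). A two-sided exact permutation test of this gene alone, with treatment relabelled separately without and with anti-PD-1 (400 relabelings, smallest possible p = 0.005), gave p = 0.015. With 1 tumor left out, the adjusted p ranged from 0.0317 (without combination replicate 2) to 0.22 (without anti-PD-1 replicate 3; limma).

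Cxcl10, the CXCR3 ligand that type I interferon and NF-kappaB also induce, was the member with the tightest vehicle values. Its vehicle tumors were at 9.23, 7.87 and 9.87 FPKM and its palbociclib tumors at 29.9, 18.9 and 45.8 FPKM. The anti-PD-1 tumors were at 16.2, 16.8 and 10.2 FPKM and the combination tumors at 17.2, 14.003 and 24.97 FPKM. Every tumor given either agent was above every vehicle tumor, whereas the anti-PD-1 and combination arms overlapped. The palbociclib effect was 1.04 ± 0.22 (SE) on the log2 scale, or 2.06-fold (adjusted p = 0.0736, limma; exact permutation test p = 0.02).

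Cxcl10 was also the one member whose palbociclib difference had an unadjusted p under 0.05 for depending on anti-PD-1. It was 1.71 ± 0.31 (SE) higher with palbociclib than with vehicle (adjusted p = 0.0688, limma) and 0.37 ± 0.31 (SE) higher under the combination than under anti-PD-1 (adjusted p = 0.638). With 1 tumor left out, the first of these ranged from 1.40 (adjusted p = 0.274, without palbociclib replicate 3) to 2.04 (adjusted p = 0.0295, without palbociclib replicate 2), the latter being the only one of the 12 sets in which it passed. The interaction, the second difference minus the first, was -1.34 ± 0.44 (SE), with an unadjusted p of 0.0112 and an adjusted p of 0.788 (limma), and it did not pass the test. At an adjusted p under 0.05 limma called 0 genes for the interaction, and 879 (5.73%) had an unadjusted p under 0.05. For the other 6 members the interaction lay between -0.24 and 0.78, with adjusted p-values of at least 0.9495.

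Cxcl11 was the lowest CXCR3 ligand in all 12 tumors, at 0.253% to 1.21% of the summed FPKM of the 3. It was at 0.0873, 0.113 and 0.143 FPKM with vehicle and at 0.203, 0.325 and 0.397 FPKM with palbociclib. Under anti-PD-1 it was at 0.182, 0.118 and 0.0417 FPKM, and under the combination at 0.181, 0.158 and 0.382 FPKM. The palbociclib tumors were all above the vehicle tumors, as were the combination tumors, but anti-PD-1 replicate 1 was level with combination replicate 1. The effect was 0.79 ± 0.25 (SE) on the log2 scale (adjusted p = 0.138, limma; exact permutation test p = 0.015), and its size depended on the pseudocount, from 0.19 with 1 to 1.21 with 0.01.

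Cxcr3, the receptor of these 3 ligands, was the only member that separated the 6 palbociclib-treated tumors from the other 6, which 1.02% of all genes tested did in this direction. It was at 0.522, 0.187 and 0 FPKM with vehicle, and at 0.891, 1.05 and 0.941 FPKM with palbociclib. With anti-PD-1 it was at 0.423, 0.142 and 0.0624 FPKM, and with the combination at 1.12, 0.707 and 0.962 FPKM. The palbociclib arm varied little (0.960 ± 0.0809 FPKM, SD, n = 3), and the tumor listed at 0 allows up to 0.0855 FPKM (3 fragments, counting error only). The effect was 1.95 ± 0.41 (SE) on the log2 scale, or 3.87-fold (adjusted p = 0.0736, limma; exact permutation test p = 0.005, the lowest that 400 relabelings can give). With vehicle replicate 3, the tumor at 0, left out, it was 1.61. With a pseudocount of 1 it was 0.68 and passed the threshold (adjusted p = 0.0488), and with 0.01 it was 2.85.

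**Figure D2:**
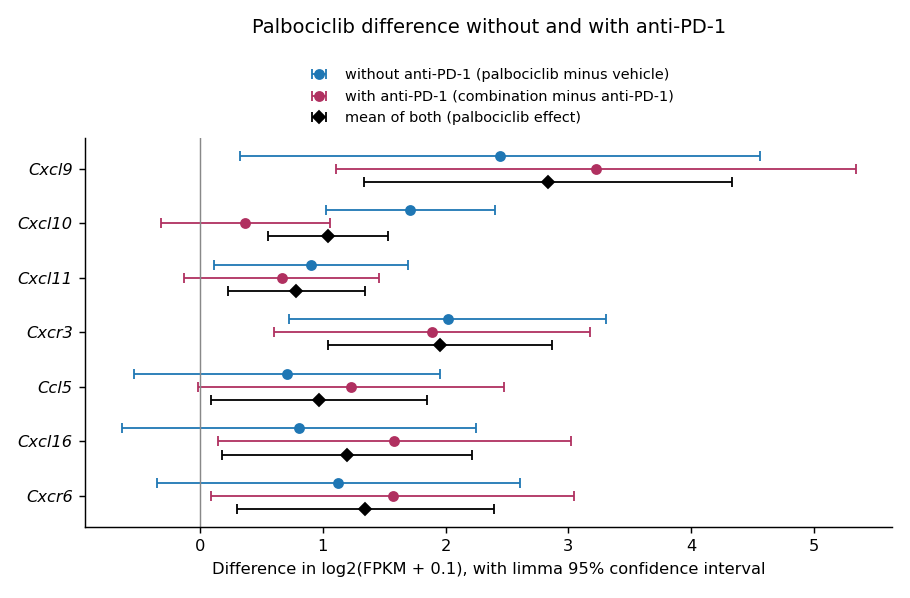
Difference in log2(FPKM + 0.1) with 95% confidence intervals from limma for each member, without anti-PD-1 (palbociclib minus vehicle, 3 tumors against 3), with anti-PD-1 (combination minus anti-PD-1, 3 against 3) and as the mean of both. All point estimates were above 0, and that of Cxcl10 was 1.71 without anti-PD-1 and 0.37 with it.

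Ccl5, a ligand that does not act on CXCR3, was at 13.5, 8.27 and 3.00 FPKM with vehicle, 11.97, 7.06 and 17.7 FPKM under palbociclib, 7.23, 5.16 and 4.23 FPKM under anti-PD-1 and 17.3, 6.12 and 19.8 FPKM under the combination. The arms overlapped throughout, with vehicle replicate 1 above 2 of the 3 palbociclib tumors. Its effect was 0.97 ± 0.40 (SE) on the log2 scale (adjusted p = 0.211, limma; exact permutation test p = 0.07), the highest p-values among the members. Leaving out vehicle replicate 3, the lowest tumor, brought the effect to 0.67.

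Cxcl16 and its receptor Cxcr6 are an exclusive pair, and neither separated the arms as Cxcr3 did. Cxcl16 was at 5.36, 2.80 and 1.07 FPKM with vehicle, 2.88, 6.95 and 4.66 FPKM under palbociclib, 2.79, 0.881 and 0.953 FPKM under anti-PD-1 and 5.92, 1.79 and 6.96 FPKM under the combination. Vehicle replicate 1 lay above 2 of the palbociclib tumors, and combination replicate 2 below anti-PD-1 replicate 1. The effect on Cxcl16 was 1.20 ± 0.46 (SE) on the log2 scale (adjusted p = 0.189, limma; exact permutation test p = 0.06).

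Cxcr6 was at 0.921, 0.103 and 0.443 FPKM with vehicle and at 0.945, 0.995 and 0.925 FPKM with palbociclib, so that the palbociclib arm lay just above the highest vehicle tumor. With anti-PD-1 it was at 0.552, 0.0971 and 0.456 FPKM, and with the combination at 1.98, 0.400 and 1.70 FPKM. Combination replicates 1 and 3 held the highest Cxcr6 of the series and combination replicate 2 was below 2 of the anti-PD-1 tumors. The effect was 1.35 ± 0.48 (SE) on the log2 scale (adjusted p = 0.163, limma; exact permutation test p = 0.045). That exact p stayed under 0.05 in 5 of the 12 sets with 1 tumor left out and reached 0.095 in the others. The ratio of Cxcr6 to Cxcl16 FPKM had arm means between 0.207 and 0.267. Single tumors ranged from 0.0367 (vehicle replicate 2) to 0.479 (anti-PD-1 replicate 3).

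The arms were also compared one with another; these comparisons share tumors. All 3 palbociclib tumors were above all 3 vehicle tumors for 5 members (Cxcl9, Cxcl10, Cxcl11, Cxcr3 and Cxcr6), which 12.9% of genes did. All 3 combination tumors were above the vehicle tumors for 3 members (Cxcl10, Cxcl11 and Cxcr3), against 10.8% of genes, and above the anti-PD-1 tumors for Cxcr3 alone, against 11.4%. With limma, 0 of 7 members passed in any of the 3 comparisons, in which 0.143%, 0.013% and 0.00651% of genes passed, while 4 (palbociclib against vehicle), 3 (combination against vehicle) and 4 (combination against anti-PD-1) had an unadjusted p under 0.05 and were higher, against 9.43%, 8.64% and 7.61% of genes.

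No difference between anti-PD-1 alone and vehicle passed the test for any member. Cxcl10 was the only member with all 3 anti-PD-1 tumors above all 3 vehicle tumors, as 4.25% of genes were, by 0.64 ± 0.31 (SE) on the log2 scale (adjusted p = 0.609, limma). The other 6 members lay between -0.88 for Cxcl16 and 0.07 for Cxcr3. None of the 7 had an unadjusted p under 0.05, and limma called 0 of all genes in this comparison (1289, or 8.40%, at an unadjusted p under 0.05). The 95% intervals are wide, from -2.72 to 1.51 for Cxcl9 and from -1.22 to 1.35 for Cxcr3, so a 2-fold change in either direction lies within both.

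The combination and palbociclib alone did not differ past the threshold for any member. The combination minus palbociclib was 0.22 for Cxcr6 and 0.18 for Cxcl9, and -0.70 for Cxcl10. For Cxcl10, the unadjusted p was 0.0467 and the adjusted p 1 (limma, a threshold passed by 0.00651% of genes), and it was the only one of the 7 with an unadjusted p under 0.05, against 4.52% of all genes in either direction. No member had all 3 combination tumors above all 3 palbociclib tumors, as 4.52% of genes did. Leaving out combination replicate 2 raised the Cxcl9 difference to 1.11 and the Cxcr6 difference to 0.87, neither of which passed the test.

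Within the arms, single tumors stood apart for several members at once. Combination replicate 2 had the lowest value of its arm for all 7 members. Anti-PD-1 replicate 1 had the highest of its arm for 6 members, all but Cxcl10, and vehicle replicate 1 the highest for 5 members, all but Cxcl10 and Cxcl11. The low values of combination replicate 2 came with a summed FPKM of 8 T cell markers (Cd3d, Cd3e, Cd3g, Cd2, Cd5, Cd8a, Cd8b1 and Cd4) of 4.69, against 15.4 and 14.7 in the other combination tumors. Its macrophage markers summed to 391 FPKM against 896 and 802, its NK cell markers to 27.1 against 66.8 and 62.0, and Ptprc was at 0.841 against 3.21 and 2.89, while its skeletal muscle markers summed to 143 against 0.859 and 5.69. The NK cell sum of this arm (mean 51.9 FPKM) was mostly the cytolytic genes Gzmb, Prf1 and Gzma, with means of 29.8, 9.23 and 7.04. Ncr1 and Klrb1c had means of 0.949 and 0.259. The part of all these markers in the low member values of this tumor was not tested.

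The balance between Cxcl9 and Cxcl10 differed between tumors. Cxcl9 was above Cxcl10 in 4 of 12 tumors, namely vehicle replicate 1, palbociclib replicate 2 and combination replicates 1 and 3. The log2 ratio of Cxcl9 to Cxcl10 ranged from -2.56 to 0.57 with vehicle, from -0.99 to 1.04 under palbociclib, from -3.57 to -0.93 under anti-PD-1 and from -0.93 to 1.65 under the combination. Anti-PD-1 replicate 1 and combination replicate 2, at -0.93 each, were level, and the other 2 combination tumors lay above all anti-PD-1 tumors. Summed over the 3 ligands, the FPKM was 15.6 ± 6.92 (SD, n = 3) in vehicle tumors, 57.7 ± 12.45 in palbociclib tumors, 18.4 ± 6.43 under anti-PD-1 and 56.2 ± 30.1 under the combination.

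The receptors were set beside the 8 T cell markers. All 8 markers had a positive palbociclib effect, between 1.29 and 1.79, with 0 passing the adjusted threshold and 8 at an unadjusted p under 0.05 (limma). Over all genes, 3154 of 15350 had an unadjusted p under 0.05 in either direction. This share belongs beside the counts of all lists below. Their summed FPKM was 1.85 to 7.14 with vehicle, 7.97 to 15.5 under palbociclib, 1.78 to 4.42 under anti-PD-1 and 4.69 to 15.4 under the combination. Per 100 FPKM of these markers, Cxcr6 was 11.6 ± 5.54 (SD, n = 3) in vehicle tumors, 10.0 ± 3.54 in palbociclib tumors, 10.98 ± 4.94 under anti-PD-1 and 10.96 ± 2.20 under the combination, so the arm means differed by less than the spread within any arm. Cxcr3 was 5.81 ± 5.22, 10.05 ± 3.63, 6.53 ± 3.96 and 9.62 ± 4.74 in the same order, and these arms overlapped too. Over the 12 tumors, on log2 values of the genes and of the marker sums, Cxcr6 followed the T cell markers (Pearson's r = 0.932, 0.894 after subtracting arm means) more closely than the 7 macrophage markers (0.700 and 0.474). For Cxcr3 the order was the other way, with r = 0.837 and 0.541 for the T cell markers and 0.921 and 0.926 for the macrophage markers. Most of the macrophage sum was C1qa, C1qb and C1qc, with vehicle means of 119, 130 and 60.2 FPKM in a sum of 410. Without the 2 tumors farthest from the median of each marker sum, r for Cxcr3 was nearly level, at 0.844 (T cell) and 0.877 (macrophage). For Cxcr6 it was then 0.895 and 0.634. These are descriptions over tumors that share arms, and the part of cell numbers in the receptor values was not tested.

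**Figure D3:**
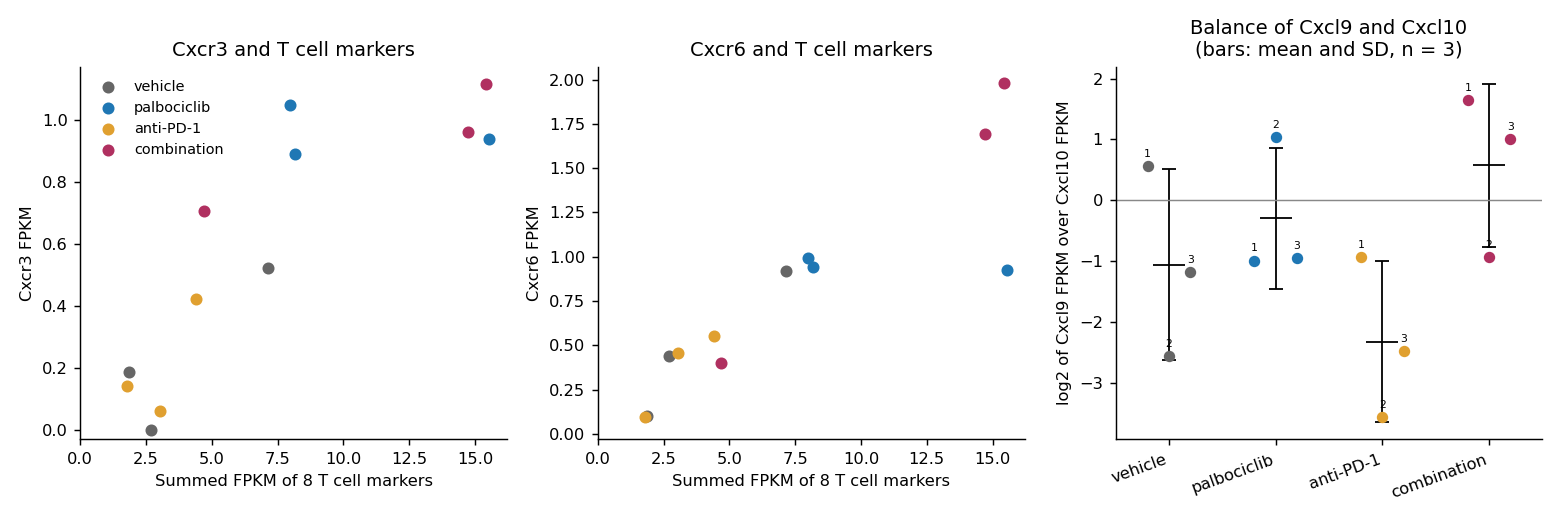
Left and middle, FPKM of Cxcr3 and Cxcr6 against the summed FPKM of 8 T cell markers, 1 point per tumor colored by arm, linear axes; right, log2 of the Cxcl9 to Cxcl10 FPKM ratio by arm, with mean and SD of 3 tumors. Cxcr6 lay between 5.46 and 16.4 per 100 marker FPKM in all tumors, and palbociclib replicate 3, at 15.5 marker FPKM, had no more Cxcr6 than the other palbociclib tumors.

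Markers of other cell types also differed between the arms, and their part in the results was not tested. All 7 macrophage markers had a positive palbociclib effect (median 1.21, 5 at an unadjusted p under 0.05, 0 passing), and their summed FPKM was 124 to 686 with vehicle, 536 to 884 under palbociclib, 142 to 504 under anti-PD-1 and 391 to 896 under the combination. All 8 NK cell markers were positive with a median of 0.59. Of them, 2 had an unadjusted p under 0.05, near the share of all genes (3154 of 15350, either direction). All 4 neutrophil markers were negative with a median of -1.69 (3 at an unadjusted p under 0.05, 0 passing). Of 7 dendritic cell markers 5 were tested, all positive with a median of 0.74, and of 4 B cell markers 2 were under the filter while the other 2 had a median of 0.48. The 4 keratin and Epcam markers of the epithelial tumor cells had a median effect of 0.09, with 2 positive, and summed to between 72.8 and 281 FPKM. Most of that sum was Krt8, with arm means from 84.9 to 175 FPKM. Arm means were at most 0.685 FPKM for Epcam, 1.95 for Krt18 and 1.46 for Krt19. The 4 fibroblast markers had a median of 0.21 and 4 endothelial markers one of -0.42. The leukocyte gene Ptprc had an effect of 0.56 (adjusted p = 0.272, limma).

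Genes of tissue around the tumor were uneven between the libraries, and the highest sums were all in palbociclib-treated tumors. Adipose markers summed to 112 and 275 FPKM in palbociclib replicate 1 and combination replicate 1 and to at most 11.1 elsewhere. Skeletal muscle markers summed to 147 and 143 FPKM in palbociclib replicate 3 and combination replicate 2 and to at most 51.1 elsewhere, and skin markers to 360 FPKM in palbociclib replicate 2 and at most 0.910 elsewhere. With both adipose-rich tumors left out, 7 of 7 members kept a positive effect and 5 an unadjusted p under 0.05 (all but Ccl5 and Cxcr6; 11.7% of all genes), with effects from 0.85 to 2.75. With both muscle-rich tumors left out, 7 of 7 had an unadjusted p under 0.05 (11.4% of all genes), with effects from 0.79 to 3.30. Each of these sets kept other palbociclib-treated tumors high in adipose, muscle or skin markers. Such tissue and the treatment therefore cannot be told apart here, and its part in the effects was not tested.

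Genes upstream of the CXCR3 ligands were read from a list of 17, namely 14 of interferon signaling and 3 of inflammatory signaling through NF-kappaB, of which 16 were tested. Their palbociclib effect was positive for 13, with a median of 0.18. An unadjusted p under 0.05 was reached by 8, against 3154 of 15350 genes in either direction. Socs1, a feedback inhibitor of interferon signaling, had an effect of 0.97 ± 0.19 (SE; adjusted p = 0.0543, limma). Ifng, which encodes interferon-gamma itself, had an effect of 1.55 ± 0.57 (SE; adjusted p = 0.172) and ranged from 0 to 0.390 FPKM in the tumors without palbociclib and from 0.145 to 1.91 FPKM in those with it.

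**Figure D4:**
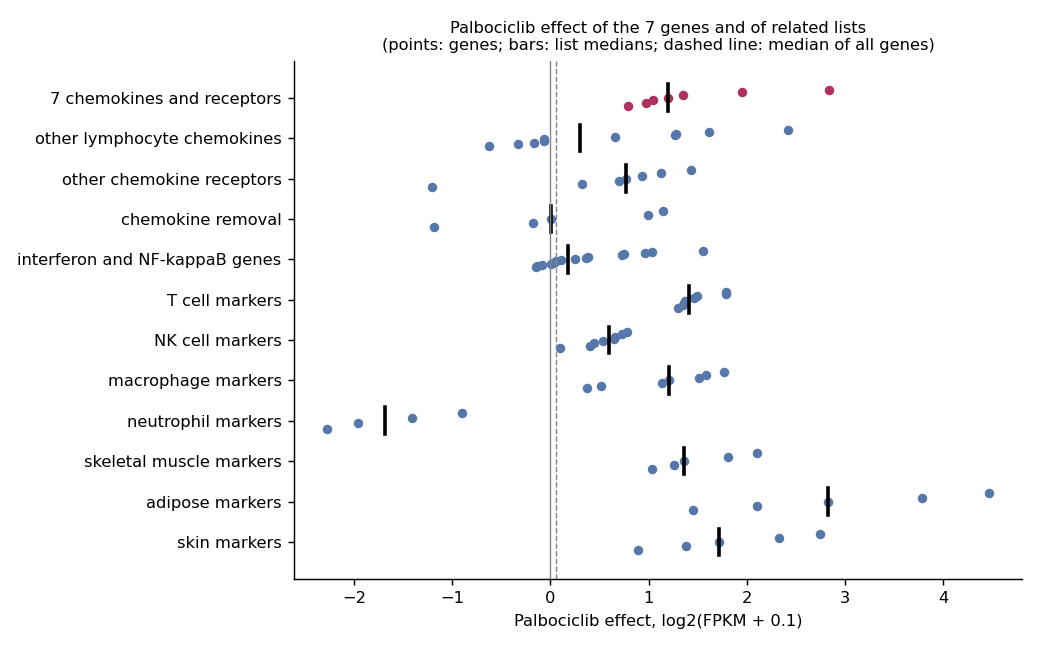
Palbociclib effect on log2(FPKM + 0.1) of each tested gene of the 7 members and of related lists; points are genes, black bars list medians, the solid line 0 and the dashed line the median of all genes (0.0552). The members' median (1.20) was near those of the T cell (1.42) and macrophage (1.21) markers, and other lymphocyte chemokines spread from -0.63 to 2.42.

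Other chemokines that act on lymphocytes had effects of both signs. Of a list of 15, 10 were tested, 5 had a positive effect and 0 passed, with a median of 0.30. An unadjusted p under 0.05 was reached by 3, against 3154 of 15350 genes in either direction. The largest were Xcl1 (2.42 ± 0.70, SE), a product of activated CD8+ T and NK cells that attracts cross-presenting dendritic cells, Ccl17 (1.61 ± 0.67), a CCR4 ligand, and Cxcl13 (1.28 ± 0.81; adjusted p = 0.381, limma), the ligand of CXCR5. Cxcl13 was at 0 FPKM in every anti-PD-1 tumor, and under the combination its median was 0 and its highest value 2.66. Xcl1 was at 0.742 ± 0.809 FPKM (SD, n = 3) in vehicle tumors, 2.74 ± 1.91 in palbociclib tumors, 0.172 ± 0.205 under anti-PD-1 and 1.37 ± 0.520 under the combination.

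Of 13 other lymphocyte chemokine receptors, 7 were tested, 6 had a positive effect and 0 passed, with a median of 0.77. An unadjusted p under 0.05 was reached by 3, against 3154 of 15350 genes in either direction. Ccr8, a receptor of tumor regulatory T cells, had an effect of 1.43 ± 0.44 (SE). Cxcr4, the receptor of CXCL12, was the exception at -1.21 ± 0.24 (SE; adjusted p = 0.0654, limma), with 4.58 ± 1.68 FPKM (SD, n = 3) under vehicle and 1.90 ± 0.592 under palbociclib. Genes that remove or trim chemokines went both ways: of 7 listed, 5 were tested and 3 were positive. Ackr3, the decoy receptor of CXCL12 and CXCL11, had an effect of -1.19 ± 0.24 (SE; adjusted p = 0.0654), and Dpp4, the protease that clips the N-terminus of CXCR3 ligands, had an effect of 1.14 ± 0.40 (SE; adjusted p = 0.157).

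The members did not all vary together over the 12 tumors. Correlations of log2(FPKM + 0.1) are given as a description; the 4 arms are shared by all points, so Pearson's r after subtracting each arm's mean is given too. Cxcl9 and Cxcr6 had the highest r of the 21 pairs (0.934, Spearman's rho = 0.958, 0.896 within arms). Without the 2 tumors farthest from the median of Cxcl9 it was 0.898, and Cxcl9 with Cxcl16 (0.941) and Cxcr3 with Cxcr6 (0.915, without the 2 farthest for Cxcr3) were then higher. Cxcl9 and Cxcl10, neighbors on the chromosome, had r = 0.599 (rho = 0.692, 0.266 within arms). Cxcl10 and Cxcl16 had the lowest r and rho (0.399 and 0.441), whereas within arms the lowest values were those of Cxcl11 and Cxcr6 (0.128) and of Cxcl10 and Cxcr3 (0.131).

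The genes whose pattern over the 12 tumors was most like that of each member were taken from those with a mean of at least 1 FPKM. Nearest to Cxcl9 were Slamf8 (r = 0.989), Fam26f (0.989) and Rac2 (0.979), and nearest to Cxcl10 were Trim34a (0.971), Gm4955 (0.970) and Ifit2 (0.956), the last an interferon-induced gene. Nearest to Cxcl16 were Cotl1 (0.984), Aoah (0.975) and Ccl8 (0.972). Nearest to Cxcr3 were Stx2 (0.975), Lyl1 (0.959) and Phf11b (0.958), and nearest to Cxcr6 were Gimap4 (0.960), Tifa (0.949) and Cd3e (0.949), the last a subunit of the T cell receptor complex. Nearest to Ccl5 was Ctsw (0.927), a protease of cytotoxic lymphocytes, and nearest to Cxcl11, whose values rest on few fragments, were Tmbim6 (0.902), Tspan3 (0.879) and Acad9 (0.864). No gene was shared among the nearest 3 of the 3 CXCR3 ligands. Only 3 genes were kept per member, so this does not show that the ligands followed different genes.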

How the data were processed

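Bulk RNA was sequenced from 12 tumors in 4 arms of 3, grouped by the treatment label. The authors deposited 1 table of FPKM per tumor. Their processing notes name HISAT2 and GRCm38/mm10; the counting tool, annotation, strand setting and any further scaling are not given in the sources used here. Of 34745 entries, 67 repeated a symbol (the entry with the highest mean was kept). No counts were used; fragments were estimated from the steps between low FPKM values, so absolute depth is approximate, and the limit for a value of 0 covers counting error only. Labels name separate tumors but say nothing of shared cages or batches.

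Genes with a mean of at least 0.1 FPKM (15350 of 22912 above 0) were fitted on the log2 scale after adding 0.1, using limma 3.58.1 (R 4.3.3; 1 mean per arm, eBayes with a trend), with Benjamini-Hochberg adjustment over all genes tested and a threshold of 0.05. Fold changes are on this scale and understate changes of low genes. Single members were tested by two-sided exact permutation. The code was tested on simulated data. Positions came from GENCODE M21 and promoters from RefSeq. Python 3.11.15, numpy 2.4.6, pandas 2.3.3 and matplotlib 3.10.9 were used.

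The members and gene lists were chosen with earlier results of these data known. All members are named; of other lists, genes that were called or the 3 with the largest absolute palbociclib effect, and marker or partner genes set beside a result; and for each member the 3 genes of highest Pearson r. Some genes that these rules name are not reported here. Ptprc falls under the rules, and Art3 and Zmynd15 are named as overlapping genes. Alternatives were pseudocounts of 1 and 0.01, other filters, TPM, quantile normalization, no trend, a replicate block, only the 2 arms compared, and each tumor left out; leaving out adipose-rich or muscle-rich tumors was chosen after seeing the data.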

Additional observations from a re-analysis of the deposited data

How the results depend on the processing

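The palbociclib effect of all 7 members stayed positive under every alternative tried. Counts of called genes over the whole table were less stable: 48 for the palbociclib effect became 11 without a filter, 0 without a trend, 129 with the replicate block, 0 with both adipose-rich tumors left out and 87 with both muscle-rich tumors left out; the cause was not tested. With tumors left out one at a time it ranged from 0 to 758, the values of Cxcl9 from 2.42 to 3.30, of Cxcl10 from 0.885 to 1.20 and of Cxcr3 from 1.61 to 2.27. Cxcr3 passed the threshold with a pseudocount of 1 (0.683, adjusted p = 0.0488, limma). The filter at a mean FPKM of 1 removes Cxcl11, Cxcr3 and Cxcr6. By exact permutation, Cxcr6 missed 0.05 with TPM (1.55, p = 0.05) and quantile normalization (1.17, p = 0.06). With 1 tumor left out, the exact effects ranged from 0.672 to 1.23 for Ccl5 (p under 0.05 in 2 of 12), from 0.902 to 1.49 for Cxcl16 (3 of 12) and from 1.04 to 1.67 for Cxcr6 (5 of 12).

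Deviations from the arm means were correlated between tumors of different arms. With the same replicate number, r lay between -0.213 and 0.453 (18 pairs, median 0.0277). With different numbers, r lay between -0.353 and 0.309 (36 pairs, median -0.0131), and 6 of 12 tumors correlated best with their own number. The labels name no pairs, so the numbers are not taken as pairs, and the replicate block is given as an alternative. With the replicate block, Cxcr3 had the same effect, 1.95, at an adjusted p of 0.0412 (limma), the count for palbociclib against vehicle went from 22 to 51 and that for the combination against vehicle from 2 to 1.

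The interaction count of 0 became 1 with a pseudocount of 0.01 or TPM, 2 with the filter at 1 or quantile normalization and 7 without a filter. Palbociclib against vehicle called 1 gene with quantile normalization, 6 without a trend and 0 with only the 2 arms. Anti-PD-1 against vehicle called 1 without a filter and 2 with TPM. The combination against vehicle called 5 with a pseudocount of 0.01, 1 with TPM, 1 without a trend and 0 with only the 2 arms. Against anti-PD-1 it called 2 without a filter or with TPM and 0 with only the 2 arms, and against palbociclib 2 with the filter at 1 or TPM, 5 without a filter and 0 with only the 2 arms. With 1 tumor left out these counts ranged from 0 to 3 (interaction), 1 to 46 (palbociclib against vehicle), 0 to 1 (anti-PD-1 against vehicle), 0 to 5, 0 to 6 and 1 to 4 (combination against vehicle, anti-PD-1 and palbociclib).

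Small differences changed sign. Anti-PD-1 against vehicle was -0.0224 for Cxcr3 with a pseudocount of 1 and 0.0339 for Cxcl11 with quantile normalization, and the combination against palbociclib was 0.111 for Cxcr3 with quantile normalization. With 1 tumor left out, anti-PD-1 against vehicle ranged from -1.42 to 0.212 for Cxcl9, from -0.277 to 0.219 for Cxcl11, from -0.628 to 0.691 for Cxcr3, from -0.955 to 0.112 for Ccl5 and from -0.843 to 0.323 for Cxcr6. The combination against palbociclib ranged from -0.318 to 1.11 for Cxcl9, from -0.193 to 0.104 for Cxcr3, from -0.184 to 0.687 for Ccl5, from -0.459 to 0.492 for Cxcl16 and from -0.154 to 0.874 for Cxcr6. The interaction ranged from -0.0366 to 1.72 for Cxcl9, from -0.752 to 0.567 for Cxcr3 and from -0.0991 to 1.09 for Cxcr6. The depth limits Cxcl11, Cxcr3 and Cxcr6 most, since a few fragments carry each value.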
